A study of Drosophila melanogaster with 3 samples.

Results

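The regions described here are the sites of MCM2-7 binding in the telomere-proximal ends of 4 chromosome arms of Kc167 cells, a female Drosophila melanogaster line derived from embryos. Members were taken by position alone: every peak that starts at or below 2000000 on 2L, 3L or X, or at or above 25900001 on 3R, on FlyBase release 5.1. They numbered 748 of 10679 peaks in replicate 1, 616 of 8553 in replicate 2 and 520 of 7029 regions in the whole-series list. The cells had the genotype se/e and grew asynchronously, with no treatment named, and chromatin was precipitated with a mouse monoclonal antibody, raised against the yeast MCM complex, that recognises the Walker B motif of MCM2-7. Both MCM immunoprecipitations, labelled as different extractions, were analysed, and the 1 input sample was not analysed here. Nothing in the labels ties the extractions to separate cultures, so the SDs below (n = 2) may be technical.

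MCM2-7 is the ring-shaped helicase that unwinds DNA at replication forks. It is loaded onto DNA before S phase by the origin recognition complex with Cdc6 and Cdt1, at more sites than are later used as origins. The ends of Drosophila chromosomes lack telomerase repeats: they carry arrays of the HeT-A, TART and TAHRE retrotransposons, followed by subtelomeric satellite repeats. Unique sequence lies on the centromere side of these arrays, and at the tip of X it includes the pigmentation gene yellow and the achaete-scute complex. Genes and sequence were not assigned to the regions here, because no annotation or genome of release 5.1 was used.

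The end blocks as a whole carried slightly more MCM peaks than the interiors of the same arms, but the arms differed in direction. An interior is the arm without its end block and without the 2 Mb at its centromere end. Replicate 1 had 93.6 peaks per Mb in the 4 end blocks together and 87.2 in the interiors. Replicate 2 had 77.1 and 68.7. The ratio of end blocks to interiors was 1.10 ± 0.0345 (SD, n = 2), above 1 in both replicates. In covered length the ratio was 1.17 ± 0.0199 (SD, n = 2), with 18.9 and 14.5 bp covered per kb of end block in replicates 1 and 2. A two-sided exact sign permutation over 2 samples cannot give less than 0.5, so differences are set against the spread between the replicates and no p-value is given. The files hold no read counts, so the depth is unknown, and a scarcity of MCM cannot be told apart from a scarcity of positions where peaks are callable.

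Relative to its interior, the end of 2L was the richest. It held 196 peaks in replicate 1 and 174 in replicate 2, or 98.0 and 87.0 per Mb, against 76.5 and 58.5 per Mb in its interior. The ratio was 1.38 ± 0.146 (SD, n = 2), and in covered length it was 1.74 ± 0.0994 (SD, n = 2). Among 9 interior blocks of 2 Mb on 2L, 8 held fewer peaks than the end block in replicate 1 and all 9 in replicate 2. 3L followed with 205 and 165 peaks and a ratio of 1.19 ± 0.0156 (SD, n = 2). Of 10 interior blocks on 3L, 8 and 7 held fewer peaks than its end block. In steps of 250 kb this excess was uneven, with density ratios of 2.16 and 2.09 from 500001 to 750000. From 1000001 to 1750000 the ratios ran from 1.19 to 1.42. In the outermost step, the innermost step and that from 750001 to 1000000 they were below 1 in both replicates.

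X and 3R did not share this excess. The end of X held 189 and 162 peaks, or 94.5 and 81.0 per Mb, and its interior 101 and 80.6 per Mb. Its ratio of 0.971 ± 0.0477 (SD, n = 2) was below 1 in replicate 1 (0.938) and just above 1 in replicate 2 (1.01), a difference within the spread between replicates. In covered length the end of X lay below the interior in both replicates (ratio 0.866 ± 0.0283, SD, n = 2). The end of 3R held 158 and 115 peaks, at 0.930 and 0.856 times the interior density (mean 0.893 ± 0.0526, SD, n = 2). Only 3 of 11 interior blocks of 3R held fewer peaks in replicate 1, and 2 of 11 in replicate 2. The end block of 3R was measured to its outermost peak, at 27894775, because the length of the arm was not given in the files.

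**Figure D1:**
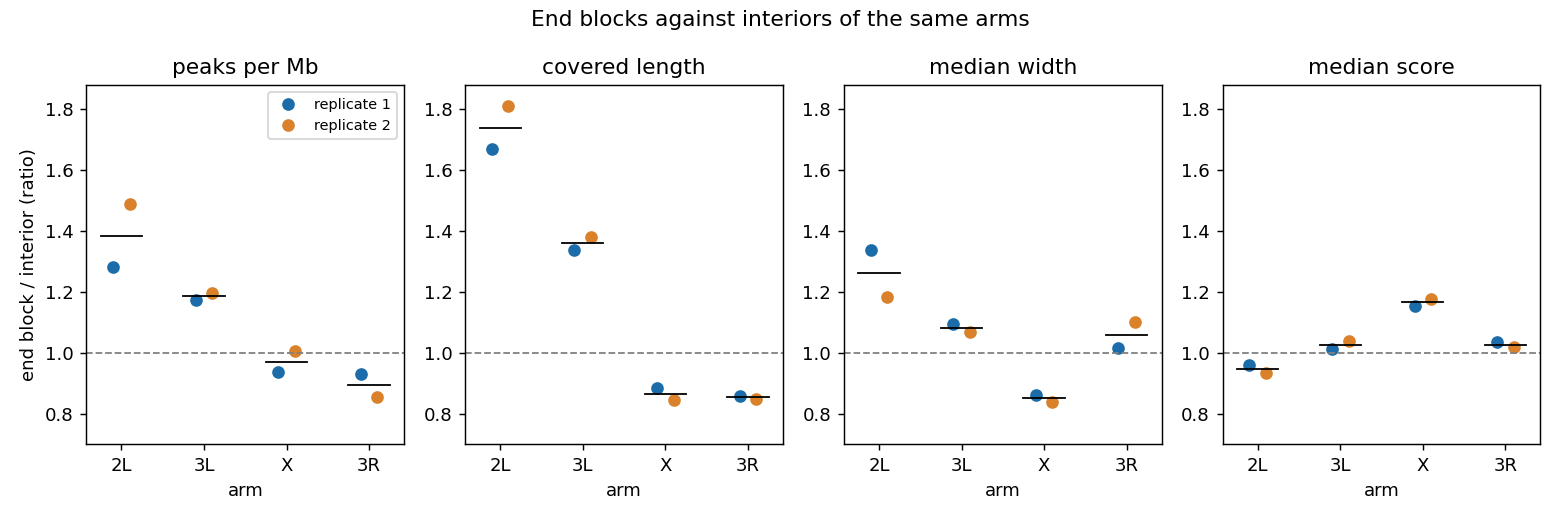
Ratio of end block to interior (vertical axis, no unit) for peaks per Mb, covered length, median peak width and median peak score on 2L, 3L, X and 3R, with 1 point per replicate and a bar at the mean of both. 2L stands highest in number, covered length and width but below 1 in score, and X is highest in score with a mean ratio of 1.17.

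The outermost 250 kb held fewer peaks than the median interior window on 3 of the 4 arms, but only slightly fewer on 3L. Counted over all 4 arms, this step held 62 peaks in replicate 1 and 50 in replicate 2, with density ratios to the interiors of 0.715 and 0.732 (mean 0.723 ± 0.0120, SD, n = 2). X had the fewest, with 9 and 6 peaks where the median 250 kb window of its interior held 24 and 19. Of 73 interior windows of X, 5 held fewer peaks in replicate 1 and 4 in replicate 2. On 3R the outermost step held 12 and 9 peaks (interior medians 20 and 16), and 15 of 95 interior windows held fewer in each replicate. On 3L it held 17 and 13 (interior medians 19 and 15), within the interior quartiles of 14 to 31 and 12 to 23. There 31 and 28 of 82 interior windows held fewer. Among the higher-scoring 50% of peaks, the density ratio of this 3L step was 1.14. 2L differed, with 24 and 22 peaks, above its interior medians of 18 and 12. Mappability of the subtelomeric sequence was not measured, and its part in these counts was not tested.

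On 2L, 3L and X the first MCM sites lay at different distances from the first base of the arm. For 3R the distance from the arm end is unknown, because the length of the arm was not given. On X a peak of replicate 1 alone, from 23786 to 23846, came first, 23.8 kb in. The first X region found in both replicates, X:72228-72640, followed at 72.2 kb. It was 413 bp wide and scored 4.47 in replicate 1 and 4.74 in replicate 2, well above the interior medians of 2.67 and 2.37. The scores are the authors' own values and have no stated unit, so they are compared within a list.

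On 2L the first shared region, 2L:73140-73415, lay 73.1 kb in. Its scores of 2.48 and 1.94 were both below the interior medians of 2.62 and 2.34. 3L opened later, with its first peak of either replicate 126 kb in. The first shared region of 3L, at 3L:128490-128707 and 128 kb in, began a compact group of 4 shared regions that ended at 132558. Their whole-series scores ran from 3.23 to 4.66, all above the 3L interior median of 2.51. On 3R the outermost shared region was 3R:27893859-27894188, with scores of 2.91 and 2.11. The next was 3R:27878323-27878495, and after that came 3R:27812585-27812817.

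**Figure D2:**
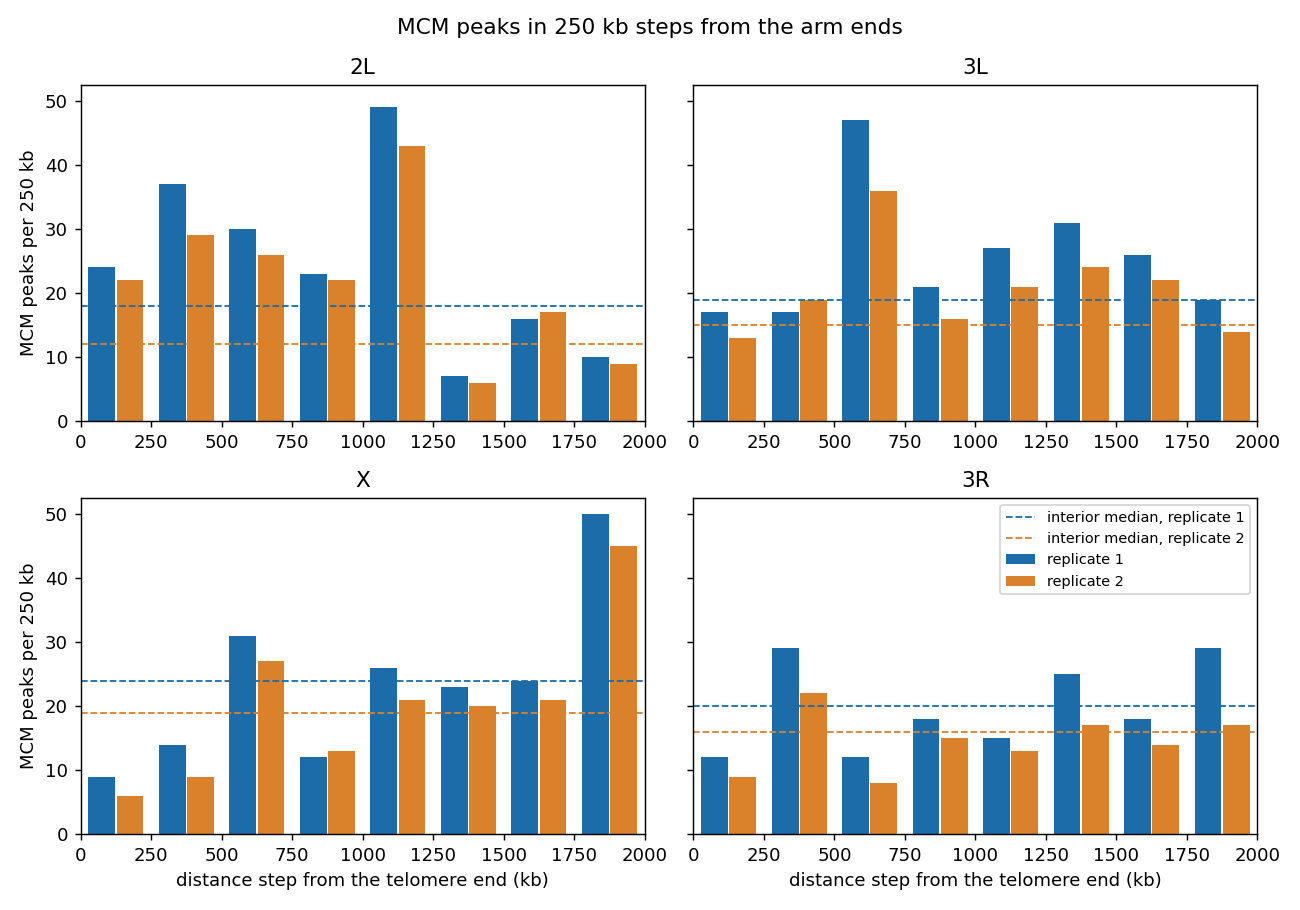
MCM peaks (vertical axis, number) in steps of 250 kb from the telomere end (horizontal axis, kb) on each arm for both replicates; dashed lines mark the median 250 kb window of the arm's interior. The tallest steps reach 49 and 43 peaks on 2L, 47 and 36 on 3L and 50 and 45 on X, while no step of 3R exceeds 29.

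From step to step the number of peaks varied more than the 4-arm totals show. Over 32 steps, counts ran from 7 to 50 in replicate 1 around a median of 23, and from 6 to 45 in replicate 2 around a median of 18. In both replicates 15 steps lay above the interior density of their arm and 14 lay below it. Counts of the replicates went together over the 32 steps, with a Pearson correlation of 0.965 and a Spearman correlation of 0.937. Shared peaks enter both counts, so this describes the lists and is no test.

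On 2L each of the outer 5 steps lay above the interior density in both replicates. The step from 1000001 to 1250000 held 49 peaks in replicate 1 and 43 in replicate 2, more than any of 75 interior windows of 2L. The step from 250001 to 500000 came next with 37 and 29 peaks. Just inside the fullest step, the one from 1250001 to 1500000 was the emptiest of the 2L end, with 7 and 6 peaks. Only 7 and 10 of the 75 interior windows held fewer. The innermost step was nearly as empty, with 10 and 9 peaks.

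The fullest step of 3L, from 500001 to 750000, held 47 and 36 peaks, and 80 of 82 interior windows held fewer in each replicate. In the whole-series list this step held 32 regions, and the fewest, 11, were found in the outer 2 steps and in the innermost. The other 7 steps of 3L had 17 to 31 peaks in replicate 1 and 13 to 24 in replicate 2, with a lesser maximum of 31 and 24 from 1250001 to 1500000. On X the maximum lay at the inner border, where the step from 1750001 to 2000000 held 50 and 45 peaks. Of 73 interior windows, 69 held fewer in replicate 1 and 72 in replicate 2. The outer 2 steps of X, with 9 and 6 and then 14 and 9 peaks, and the step from 750001 to 1000000, with 12 and 13, were its emptiest.

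3R had no step of this kind. Its fullest step, from 27400001 to 27650000, held 29 and 22 peaks, and 76 and 74 of 95 interior windows held fewer. In replicate 1 the innermost step, from 25900001 to 26150000, also held 29 peaks, but replicate 2 had 17 there. In the whole-series list the step from 27400001 had the most regions, 20, and the fewest, 6, lay from 27150001 to 27400000.

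Over the whole blocks, MCM peaks were wider in the ends of 2L and 3L and narrower in that of X. On 2L replicate 1 had a median width of 168.5 bp and replicate 2 one of 160 bp, against 126 and 135 bp in the interior, a ratio of 1.26 ± 0.108 (SD, n = 2). On 3L the medians were 151 and 142 bp, against 138 and 133 bp (ratio 1.08 ± 0.0188, SD, n = 2), but among the higher-scoring 50% of peaks the ratio was 0.959. X had 120 and 115 bp, against 139 and 137 bp, a ratio of 0.851 ± 0.0169 (SD, n = 2), which turned to 1.08 after merging of peaks at most 1 kb apart. No interior 2 Mb block of X had a lower median width than the end block in replicate 2, and 1 of 9 did in replicate 1. On 3R the end medians of 136 and 143 bp stood against 134 and 130 bp, and the ratio of 1.06 ± 0.0602 (SD, n = 2) was within the spread between replicates. All 4 ends together had medians of 144 and 138.5 bp, and quartiles of 76 to 251 bp and 72 to 234 bp.

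Broad sites were more frequent in the end of 2L than in its interior, and less frequent in that of 3R. Of the 144 whole-series regions in the 2L end, 18 were at least 600 bp wide, or 12.5%, against 5.34% of 936 in the interior. The 3L end had 13 of 140 (9.29%, interior 5.15%), X had 10 of 130 (7.69%, interior 7.81%) and 3R had 3 of 106 (2.83%, interior 5.53%). On 3L, 8 of the 13 lay in 1 run of peaks, from 626813 to 654616, and without it 5 of 123 regions (4.07%) were this wide, a count made after the values were seen. On 2L the share without the largest run of the end was 11.4% (15 of 132). The interior shares still include the runs of the interiors. The widest region of all, 3L:639266-641120, measured 1855 bp with scores of 2.51 and 2.28. It was followed by 2L:478741-480405 with 1665 bp, made of 1 peak in replicate 1 (score 3.99) and 2 in replicate 2 (highest score 3.45). The widest region of X, X:1168852-1170018, measured 1167 bp and scored 3.82 and 3.42. On 3R the widest, 3R:27539070-27539902, reached 833 bp and scored 2.95 and 2.86. Of the 10 widest regions, 4 were on 2L, 3 on 3L, 3 on X and none on 3R.

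Several of the widest sites were neighbours. 3L:632998-634189 and 3L:634428-635589, with 1192 and 1162 bp, lay within 10 kb of the widest region. On 2L, 2L:480684-481753 (1070 bp) lay beside the second widest.

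Peak scores were higher in the end of X than in its interior. There the median scores were 3.09 and 2.79 in replicates 1 and 2, against 2.67 and 2.37 in the X interior, a ratio of 1.17 ± 0.0169 (SD, n = 2). In both replicates and in the whole-series list all 9 interior 2 Mb blocks of X had lower medians. The difference was present at each width, with ratios from 1.07 to 1.15 in replicate 1 and from 1.15 to 1.17 in replicate 2 over peaks under 100 bp, of 100 bp up to 200 bp and of 200 bp or more. The medians of its 8 steps ran from 2.86 to 3.25 in replicate 1 and from 2.49 to 3.20 in replicate 2, all above the interior medians. Peaks of the X end without a partner in the other replicate also scored above those of the interior, with 2.56 against 2.24 in replicate 1 and 2.84 against 2.16 in replicate 2.

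Over the whole block, scores in the end of 2L were lower than in its interior. Its medians of 2.52 and 2.18 were below those of its interior, 2.62 and 2.34 (ratio 0.946 ± 0.0191, SD, n = 2). This came with a mixed picture by step: 5 of the 8 steps had medians above the interior's in both replicates, and the 3 from 500001 to 1250000 lay below in both. By width the difference was largest among peaks of 200 bp or more, where the ratios were 0.879 and 0.841. On 3L and 3R the ratios were 1.03 ± 0.0168 and 1.03 ± 0.0125 (SD, n = 2 each). On each of these arms 5 of the 8 steps had medians above the interior's in both replicates and 2 had medians below. On 3L the outermost step had medians of 3.29 and 3.16, against 2.53 and 2.26 in the interior. The 3L step from 750001 to 1000000 had 2.05 and 1.83.

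**Figure D3:**
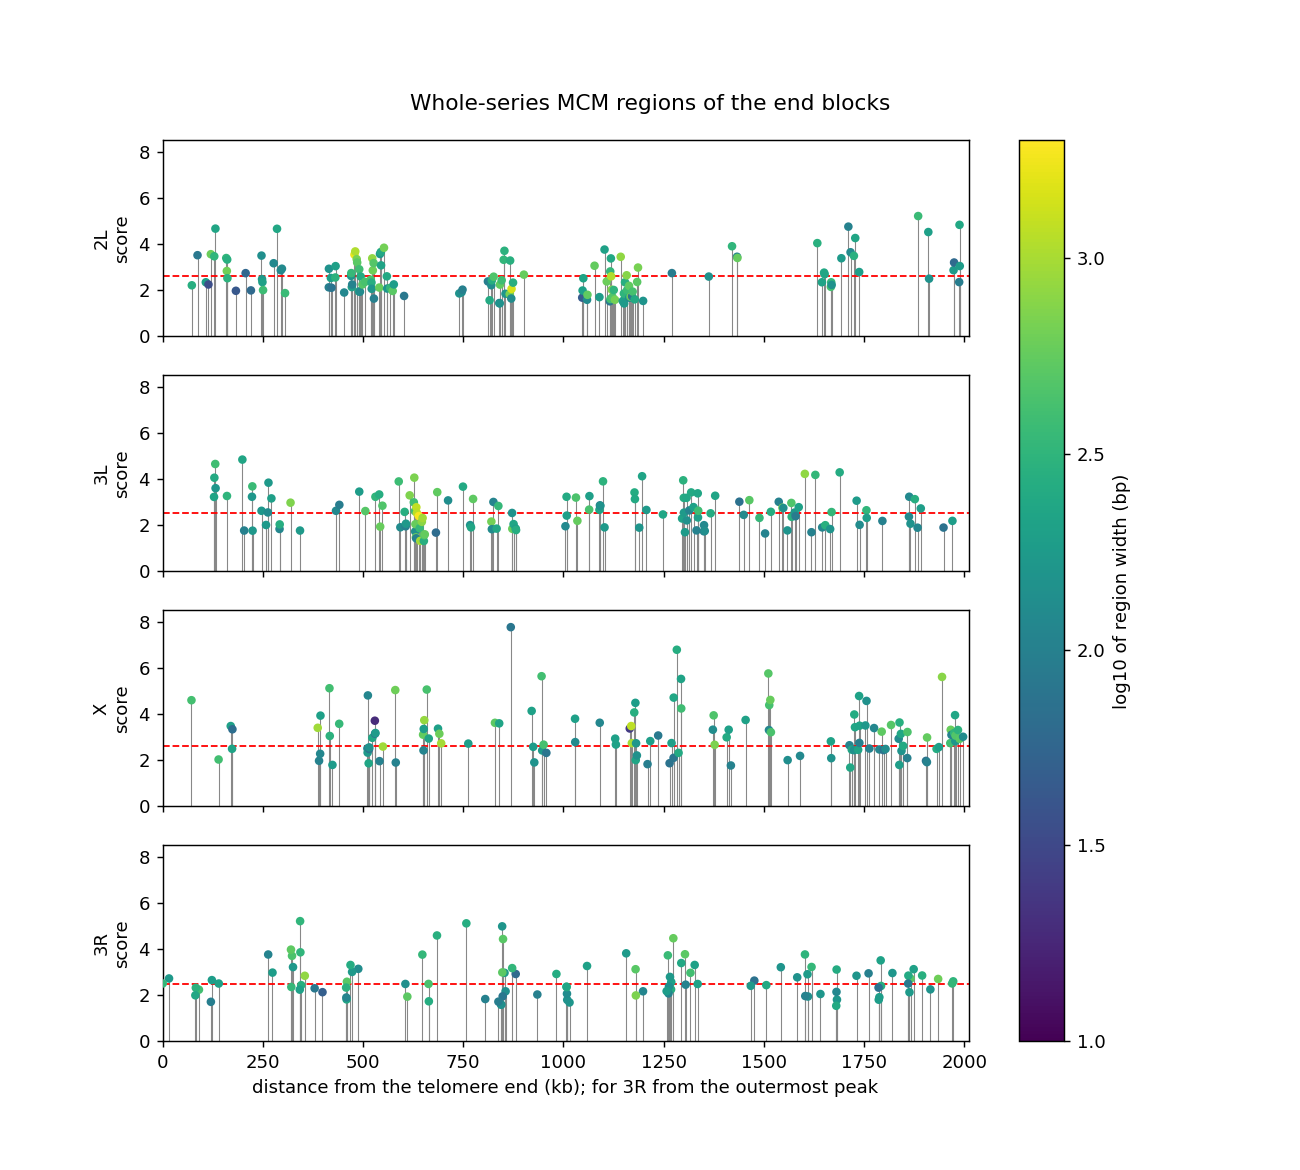
Score of each whole-series region (vertical axis, the authors' score) against its distance from the telomere end (horizontal axis, kb; on 3R from the outermost peak), with colour for log10 of width and a dashed line at the median score of the arm's interior. X holds the tallest points, up to 7.77, and on 2L the 35 regions between 1000 and 1250 kb have a median of 1.94, below the line.

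Of the 10 highest-scoring regions of the 4 ends, 7 were on X, 2 on 3R and 1 on 2L. X:868541-868620 led with a whole-series score of 7.77. Its peaks were 76 bp wide with a score of 7.30 in replicate 1 and 9 bp wide with 8.25 in replicate 2, and they shared only 868612 to 868616. X:1282619-1282881 came second with 7.12 and 6.46. It was followed by X:1510862-1511352 with 6.38 and 5.15, by X:945338-945742 with 5.93 and 5.36, and by X:1944011-1944791 with 7.80 and 5.63. X:1293116-1293331 scored 5.19 and 5.87 and lay in the same 250 kb step as the region in second place, with another region between them. These 6 sites of X were picked by score, so their height above the X interior medians is no separate result.

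The highest region of 2L was 2L:1884461-1884819, with 5.53 and 4.90, and it bordered a stretch of 132 kb without peaks. On 3R the leading pair was 3R:27551276-27551597, with 5.82 and 4.61, and 3R:27136778-27137040, with 5.01 and 5.23. The remaining member of the 10 was X:416358-416759, with 5.67 and 4.57. No region of the 3L end was among them, and its highest, 3L:199194-199420, had 5.18 and 4.51. A score of 5 or more was reached by 9 of the 130 X regions (6.92%, interior 3.51%). It was reached by 1 of 144 regions on 2L (0.694%, interior 2.24%), by 2 of 106 on 3R (1.89%, interior 0.873%) and by 0 of 140 on 3L (interior 24 of 1203). Over the 4 arms it was reached by 2.31% in the ends and 2.12% in the interiors.

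The order of scores was alike in both extractions. Across the 520 shared regions of the ends, Spearman's rho between the scores of replicates 1 and 2 was 0.887, and it was 0.870 over 4768 interior regions. It was lowest on X (0.831) and highest on 2L (0.916).

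Runs, in which each peak lies within 5 kb of the next, held a similar share of peaks in the ends and the interiors. In runs of at least 5 lay 37.7% and 30.2% of the end peaks in replicates 1 and 2, and 36.9% and 27.3% of the interior peaks. The largest run of the ends in replicate 1 was on 3L from 626813 to 654616, where 27 peaks covered 40.1% of 27.8 kb. Replicate 2 had 19 peaks from 626854 to 654420, which covered 34.0%. Most were found in both replicates, 19 of the 27 and 18 of the 19, where 66.4% of all replicate 1 peaks and 84.4% of all replicate 2 peaks are. Median widths there were 320 and 352 bp, against 138 and 133 bp in the 3L interior, but the median scores of 1.96 and 1.68 were well below the 3L interior medians of 2.53 and 2.26. The 3L interior held a run of 31 peaks in replicate 1, and at most 18 in replicate 2. This end run held the 3 widest regions of 3L.

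Runs of 20 or more peaks were also found on 2L. From 1142707 to 1186429, 20 peaks of replicate 1 had medians of 255 bp in width and 1.99 in score. Replicate 2 had 21 peaks from 1142727 to 1186507, with medians of 218 bp and 1.69. Like those of the 3L run, these peaks were wider and scored lower than the medians of the arm's interior. Another, from 469547 to 499100, held 21 peaks in replicate 1 with medians of 163 bp in width and 2.55 in score. Replicate 2 had 14 peaks in that stretch. Its own run there was shorter, with 10 peaks from 478743 to 499138 and medians of 328.5 bp in width and 2.76 in score. In this shorter stretch replicate 1 had 14 peaks. Of the 21 peaks of the replicate 1 run, 13 were shared, and of the 10 of the replicate 2 run, all were. Over all peaks, the shares are 66.4% in replicate 1 and 84.4% in replicate 2. On 2L, 55.1% of the end's peaks in replicate 1 and 47.7% in replicate 2 lay in runs of at least 5, against 31.6% and 22.3% in the interior. On the other arms the shares of the end were below those of the interior in both replicates, with 31.7% and 28.4% on X (interior 43.4% and 33.3%).

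Runs on X and 3R held at most 11 peaks. The largest on X, from 1835907 to 1847256 in replicate 1 and from 1834289 to 1847238 in replicate 2, had 9 peaks in each. On 3R it held 11 peaks in replicate 1, from 26620335 to 26637559, and 8 in replicate 2, from 27039063 to 27050404.

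Crowded steps of 2L had low scores. Across its 8 steps, Spearman's rho between peak number and median score came to -0.86 and -0.87 in replicates 1 and 2. The fullest step had medians of 1.90 and 1.71, and the emptiest had 3.68 and 2.85. On 3R the relation had the opposite sign, with rho of 0.69 and 0.89 over 8 steps. On X the sign differed between replicates (0.38 and -0.43), and on 3L it was -0.41 and -0.14. Over all 32 steps rho was -0.22 and -0.20, near the -0.17 and -0.13 of 315 and 309 interior windows with at least 5 peaks. Neighbouring steps share an arm and its peaks, so these values are descriptive.

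**Figure D4:**
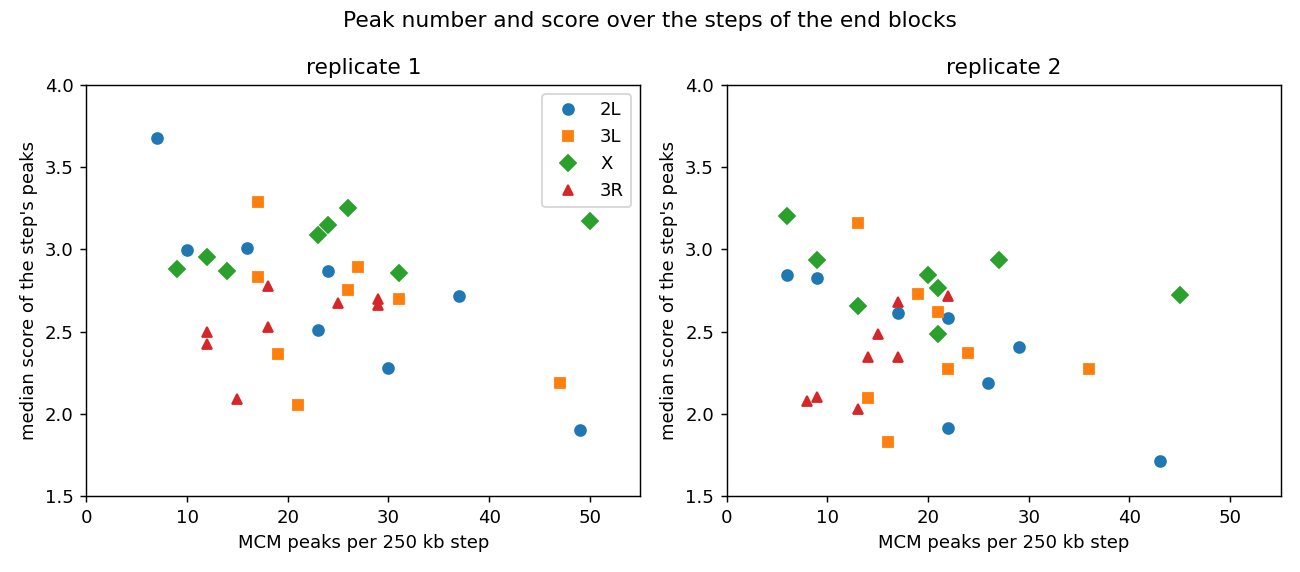
Median score of the peaks in each 250 kb step (vertical axis, the authors' score) against the number of peaks in the step (horizontal axis), for replicates 1 and 2, with 1 point per step and a symbol per arm. On 2L the points fall from 3.68 at 7 peaks to 1.90 at 49 in replicate 1, while the X step with 50 peaks keeps a median of 3.17.

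Peaks lay closer together in the end of 2L than in its interior. Neighbouring peaks of the 2L end were separated by a median of 2582 and 2566 bp in replicates 1 and 2, against 3822 and 5195 bp in the interior (ratio 0.585 ± 0.128, SD, n = 2). On 3R it was 3754 and 7219 bp, against 3475 and 4523 bp (ratio 1.34 ± 0.365, SD, n = 2), a difference within the spread between replicates. On X the replicates lay on opposite sides of the interior (ratios 1.31 and 0.945), and on 3L the ratio was 1.04 ± 0.0177 (SD, n = 2). Over the 4 ends together it was 0.894 ± 0.109 (SD, n = 2), within the spread between replicates. Neighbours at most 1 kb away made up 31.2% and 28.6% of the gaps in the ends, and 30.2% and 26.6% in the interiors.

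Stretches of over 50 kb without a peak in either replicate took up 30.1% of the end blocks, compared with 37.0% of the interiors. Only stretches wholly inside an end block or an interior were counted, so the long gap across the inner border of 3L was left out. 3L had the fewest, 4, which took up 12.3% of its end block, against 35.4% of its interior. On 2L they took up 39.7% of the end, and 40.8% of the interior. The longest was on 2L from 602558 to 740161 (138 kb), and the longest on 3R ran from 26427749 to 26559919 (132 kb). On X the longest lay from 255692 to 370559 (115 kb), next to another of 80.3 kb that began at 175346. These gaps of X fall in its outer 2 steps. On 3L the longest ran from 883134 to 965419 (82.3 kb). The space before the first peak was not counted among them, and was 126 kb on 3L, 72.6 kb on 2L and 23.8 kb on X.

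Replicate sharing in the ends was close to that of the interiors. Sharing means an overlap of 1 bp or more with any peak called in the other extraction, and over all peaks it holds for 66.4% in replicate 1 and 84.4% in replicate 2. In the ends 528 of 748 peaks of replicate 1 were shared (70.6%, exact binomial 95% interval 67.2% to 73.8%), against 67.4% (66.3% to 68.5%) in the interiors. In replicate 2 the shares were 541 of 616 (87.8%, 85.0% to 90.3%) and 87.1% (86.2% to 87.9%). The intervals overlap, and cover counting error only. Each share reads the same overlap from another side, and they are not independent measurements.

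By arm, the 2L end had the highest share in replicate 1, 74.0% against 65.2% in its interior, but in replicate 2 its share of 86.8% was near the interior's 86.2%. The 3R end had the highest share in replicate 2, 93.0% of 115 peaks, and the lowest in replicate 1, 68.4%. In the outermost 250 kb of the 4 arms, 66.1% of 62 peaks and 84.0% of 50 peaks were shared. At equal width the ends and interiors lay near each other. Of peaks under 50 bp, 19.5% in the ends and 17.9% in the interiors were shared in replicate 1, and 55.6% and 51.9% in replicate 2. All 104 end peaks of replicate 1 and all 65 of replicate 2 that were at least 400 bp wide were shared, against 98.3% of 713 and 99.8% of 495 in the interiors.

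**Figure D5:**
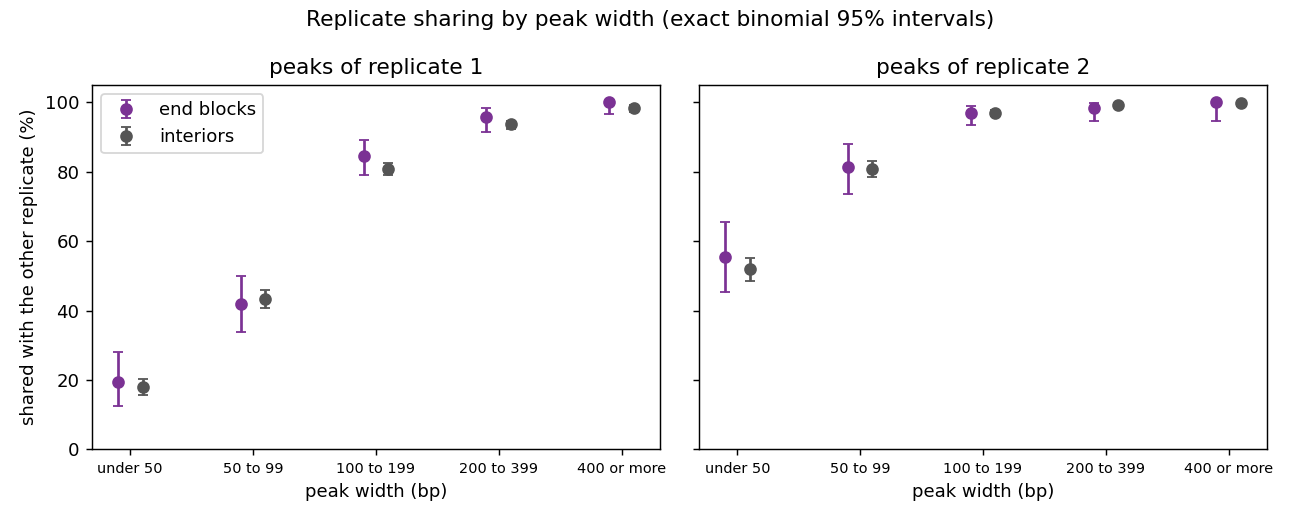
Share of peaks that overlap a peak of the other replicate (vertical axis, %) by peak width in bp (horizontal axis), for the end blocks and the interiors of the same 4 arms, with exact binomial 95% intervals. In the ends the shares rise from 19.5% and 55.6% under 50 bp to 100% at 400 bp and more, and in the interiors from 17.9% and 51.9% to 98.3% and 99.8%, and the intervals of ends and interiors overlap in every class.

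Peaks found in 1 replicate alone numbered 220 in replicate 1 and 75 in replicate 2. Of these, 45.9% and 70.7% lay within 1 kb of a peak of the other replicate, against 42.2% and 62.8% in the interiors, with overlapping 95% intervals. In replicate 2 they had a median width of 37 bp, against 158 bp for its shared end peaks. Their median score of 2.49 was above the 2.07 of the 726 interior peaks of this kind (ratio 1.20), while in replicate 1 the medians were 2.20 and 2.17 (ratio 1.02). By arm in replicate 2, 3L had 2.62 against 1.96 (19 peaks) and X 2.84 against 2.16 (25 peaks), while the ratios were 0.942 on 2L and 1.02 on 3R. In replicate 1 the 3L ratio was 0.990. The highest score of any end peak belonged to this class: the replicate 2 peak 3R:26601623-26601635, of 13 bp, scored 13.7. Its nearest replicate 1 peak, 3R:26601275-26601354, was 269 bp away, scored 4.63 and had no partner either. It was named after its value was seen.

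At the inner borders the regions on either side were 82 to 311 bp wide. The last whole-series regions inside were 2L:1988251-1988432 (182 bp, score 3.05), 3L:1969945-1970129 (185 bp, 2.19), X:1996491-1996620 (130 bp, 3.02) and 3R:25922579-25922889 (311 bp, 2.60). The first outside were 2L:2009095-2009176 (82 bp, 2.14), 3L:2163723-2163942 (220 bp, 2.41), X:2006820-2006960 (141 bp, 1.87) and 3R:25886633-25886863 (231 bp, 2.96). On 3L the border fell in a long gap.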

How the data were processed

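The authors deposited 3 peak lists, which name PeakSeq as their source and, per the file headers, FlyBase release 5.1 as the build. Each MCM replicate has its own list. Aligner, caller settings and the role of the input: not given in the sources used here. Scores were deposited by the authors without a unit. Other deposited values are the start and end of each peak.

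Blocks, steps of 250 kb, interiors, widths, gaps, runs and overlaps were computed with Python 3.11.15, pandas 2.3.3, NumPy 2.4.6 and SciPy 1.17.1. On 2L, 3L and X steps were counted from the first base. On 3R they were counted from the inner border, and the outermost step ended at the last peak. Shares have exact Clopper-Pearson 95% intervals. Ratios were formed within each replicate, and the code was tested on simulated data.

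Regions were named by rule: nearest the end, highest score, widest, longest free stretch, fullest and emptiest step, and border on each arm, and the 10 highest scores overall. Other regions and runs were picked after their values were seen. Members and measures were chosen with earlier results of these data known. Every whole-series region of the ends and interiors overlaps a peak of each replicate, so that list is no independent measurement. Alternatives changed the interior, block length, score and width limits, merging, overlap, arm weights, list and replicates.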

Additional observations from a re-analysis of the deposited data

Results flagged for a closer look

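The arms differed in direction, and the differences between arms were not tested. In number of peaks per Mb, both replicates were above the interior at the ends of 2L (ratio 1.38) and 3L (1.19) and below it at the end of 3R (0.893). In median width, both were above it on 2L (1.26), 3L (1.08) and 3R (1.06) and below it on X (0.851). In median score, both were above it on X (1.17), 3L (1.03) and 3R (1.03) and below it on 2L (0.946).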

How the results depend on the processing

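The shortage in the outermost 250 kb over the 4 arms held under each alternative run, at 0.855 among the higher-scoring 50% of peaks, 0.711 with peaks within 1 kb merged, 0.633 in covered length, 0.748 with the centromere end in the interior, 0.759 as the mean of the arms' ratios, 0.706 for peaks at least 50 bp wide and 0.707 in the whole-series list. The density ratio of the whole end blocks stayed above 1, at 1.19 among higher-scoring peaks, 1.17 in covered length, 1.14 with the centromere end and 1.04 in the outer 1 Mb. The median width ratio fell below 1 among higher-scoring peaks (0.982), and was 1.09 with merged peaks, 1.11 in the outer 1 Mb and 1.02 in the whole-series list. The score ratio was 1.04 with the centromere end, 1.02 in the outer 1 Mb, 1.03 for peaks at least 50 bp wide and 1.03 in the whole-series list. The gap ratio was 0.717 in the outer 1 Mb. The difference in sharing was 0.0112 percentage points among higher-scoring peaks, against 1.95 over all peaks.

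By arm, the density ratio of X turned above 1 among higher-scoring peaks (1.25) and with the centromere end (1.02). It also did so in 1 of the values that leave out a replicate (0.938 to 1.01). In the outer 1 Mb of X the density ratio was lower, at 0.669. The width ratio of X turned above 1 with merged peaks (1.08). On 3L the outermost step turned above 1 among higher-scoring peaks (1.14), the width ratio fell to 0.959 there, and the score ratio was 0.988 in the outer 1 Mb. Median scores were above those of the interior in the end of X and in the outermost step of 3L. The cause of these changes was not tested. The median width ratio of 3R was 1 in the whole-series list. The other arm ratios of density, width and score kept their direction under the alternatives run; gaps and sharing were not varied by arm. The largest replicate 1 run of each end block was also left out, a choice made after seeing the data. The interiors kept their own runs. The share of regions at least 600 bp wide relative to the interior then fell from 1.80 to 0.789 on 3L. On X it turned from 0.985 to 1.03, and it was 2.13 on 2L and 0.548 on 3R. The SDs rest on 2 replicates, and the depth is unknown.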
